A study of Mus musculus with 36 samples.

Results

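The loss of Fmr1 was examined at the level of brain RNA, over the autosomal genes and Fmr1 itself, in 3 FMR1 KO and 3 WT libraries. The members were chosen by chromosome and by gene type alone, as every autosomal protein-coding gene of the count table together with Fmr1, which lies on the X chromosome. There were 15968 such genes among the 16614 genes of the table, and 15727 passed the filter on low counts and were tested, while 241 did not. The 6 libraries were part of a series of 36, in which the other libraries were ribosome-protected fragments or RNA from another preparation.

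Each library came from a preparation of 10 whole brains of mice at postnatal day 5, either C57BL/6 WT or FMR1 KO (written FMR1 -/y in the study's methods). The brains were frozen and homogenized, and the study describes the RNA as coming from whole brain homogenate. Whether it was taken before or after debris was spun down is not given in the sources used here. All 6 preparations used the M protocol of the study, which had a buffer rich in magnesium. The replicates were separate preparations as far as the labels tell, and a pool shows neither the animals in it nor the spread between them. For the supplier the labels name Charles River, while the study's methods name Jackson Laboratories for both lines and give the WT as C57BL/6J. The study worked with mice of both sexes, and the sex of the animals in each RNA pool is not given in the sources used here. Summed reads over 5 Y-linked genes were 11545, 11805 and 11898 in the WT libraries and 20, 26 and 14 in the KO libraries. Y-linked reads were thus nearly absent from the KO pools, although the notation FMR1 -/y is that of male animals. Genotype, the sex makeup of the pools and the genetic background of the lines therefore cannot be told apart, and every difference below is between these 2 sets of pools.

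Fmr1 encodes FMRP, an RNA-binding protein that associates with ribosomes and represses or stalls the translation of many neuronal mRNAs. Its loss causes Fragile X syndrome, the most common inherited form of intellectual disability. Because FMRP acts mainly on translation, mRNA abundance is the reference against which changes in ribosome occupancy are read, and the question addressed here is which mRNAs themselves differed in level between the genotypes.

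Total counts per library ran from 112249206 to 147216378, and the 10 most abundant genes took 4.97% to 7.16% of them. At this depth the median standard error of a log2 fold change was 0.13 among the 13711 autosomal genes with a mean of at least 1 CPM (counts scaled by library size), and the median half-width of the 95% interval was 0.30. For 96.3% of these genes the interval lay within −1 and 1 on the log2 scale. The median SD of log2 CPM within a genotype was 0.16 in WT and 0.13 in KO. Fewer cells of a type and less RNA per cell cannot be told apart in such bulk RNA.

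Fmr1 itself fell. Its level was 61.7, 61.0 and 69.8 CPM in the WT libraries and 16.4, 17.5 and 17.9 CPM in the KO libraries, so that the groups were far apart and tight. The mean went from 64.2 ± 4.9 CPM (SD, n = 3) to 17.2 ± 0.77 CPM (SD, n = 3), which left 26.9% of the WT level. The log2 fold change was −1.90 ± 0.10 (SE) with an adjusted p of 3.67e-05 (edgeR, quasi-likelihood test on raw counts, adjusted by Benjamini and Hochberg's method), and this test was used throughout. Reads over Fmr1 (GRCm38 chrX:68678541-68717963, plus strand) thus remained in the KO libraries, all 3 of which matched their label by this measure.

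Among the 15726 autosomal genes tested, 4 passed the threshold of 0.05. Hist1h4m, Gm15446 and Kcnh6 rose in KO brains, which is 0.0191% of the genes tested. Wdfy1 fell, which is 0.00636%. The median log2 fold change over all autosomal genes was 0.00027, with 5th and 95th percentiles of −0.42 and 0.25. An unadjusted p under 0.05 was reached by 389 genes or 2.47%, of which 135 were higher and 254 lower in KO, and the lowest adjusted p among the genes that did not pass was 0.054.

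**Figure D1:**
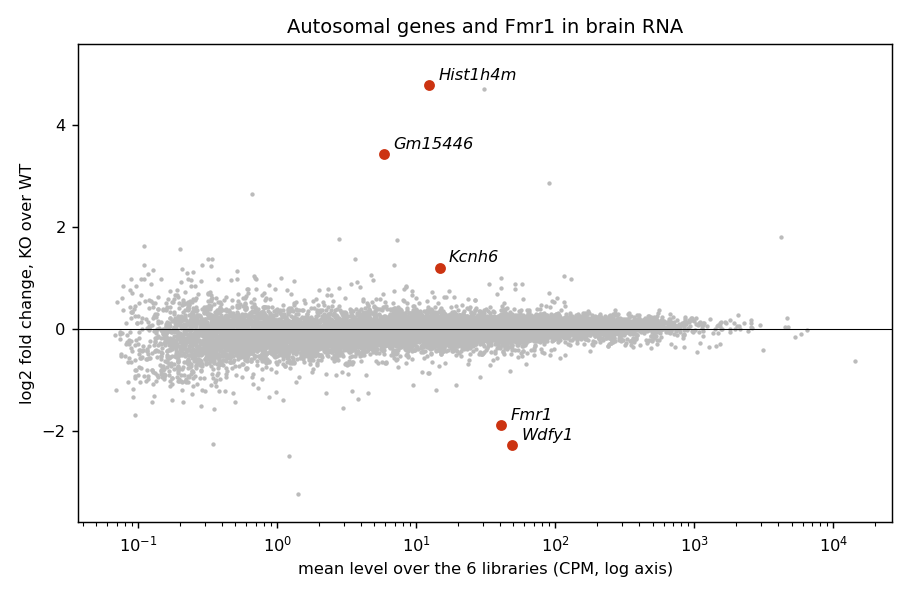
Log2 fold change of FMR1 KO over WT (vertical axis) against the mean level over the 6 libraries in CPM (horizontal axis, log scale) for the autosomal genes tested and Fmr1, with the genes past the adjusted p threshold in red. Most genes lie close to 0, with 5th and 95th percentiles of −0.42 and 0.25, and some genes as far from 0 as the red ones did not pass.

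Wdfy1, which encodes a FYVE and WD-repeat protein of early endosomes that takes part in Toll-like receptor signalling, was the autosomal gene that fell. It measured 84.8, 81.1 and 78.2 CPM in WT and 15.4, 18.6 and 16.0 CPM in KO. The KO libraries all lay below the lowest WT library, and the KO mean was 20.5% of the WT mean. The log2 fold change was −2.29 ± 0.11 (SE; 95% interval −2.53 to −2.05; adjusted p = 1.43e-05 by edgeR). The gene lies at chr1:79702262-79776143 on the minus strand, where its 5′ end overlaps Mrpl44 on the opposite strand.

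Kcnh6, an ERG-family voltage-gated potassium channel gene at chr11:106008124-106034549 on the plus strand, rose. Its level was 8.68, 9.30 and 8.78 CPM in WT and 20.5, 20.6 and 20.6 CPM in KO, a 2.31-fold difference in means with little spread in either group. The log2 fold change was 1.21 ± 0.10 (SE; 95% interval 0.98 to 1.43; adjusted p = 0.00126 by edgeR).

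Gm15446, a predicted gene at chr5:109923400-109943936 on the plus strand, was near the low end of detection in WT brains and rose in KO. It measured 1.14, 1.06 and 0.806 CPM in WT with 145 reads at most. In KO it measured 11.1, 11.5 and 9.75 CPM with 1295 reads at least. Every KO library thus stood well above every WT library, with a 10.8-fold difference in means. The log2 fold change was 3.43 ± 0.18 (SE; 95% interval 3.02 to 3.84; adjusted p = 3.34e-05 by edgeR). At its 5′ end alone, from 109923400 to 109923481, it overlaps the long noncoding gene Gm26808 on the opposite strand. The strand setting of the counting is not given in the sources used here. Reads of both genes therefore cannot be told apart within that stretch.

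**Figure D2:**
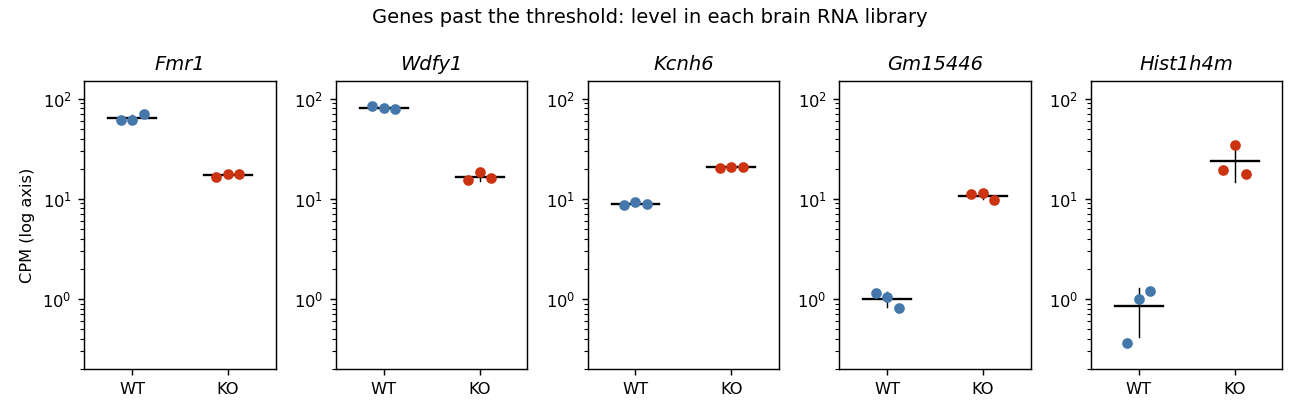
Level in CPM (log axis) of Fmr1 and of the 4 autosomal genes past the threshold in each library, with points for the libraries, a horizontal line for the mean and a vertical line for the SD (n = 3 per genotype). The WT and KO points of each gene do not overlap, from Wdfy1 at 20.5% of WT to Hist1h4m at 28.0-fold.

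Hist1h4m, one of the replication-dependent genes for histone H4, had the largest rise. It measured 0.364, 0.990 and 1.21 CPM in WT and 19.5, 34.5 and 17.8 CPM in KO, a 28.0-fold difference in means. The log2 fold change was 4.79 ± 0.42 (SE; 95% interval 3.84 to 5.75; adjusted p = 0.00189 by edgeR). The level of a second copy, Hist1h4n, went the other way without passing the test, with 32.8, 31.7 and 49.5 CPM in WT and 16.6, 28.5 and 13.9 CPM in KO (log2 fold change −0.95 ± 0.27, SE; adjusted p = 0.999 by edgeR).

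These 2 copies are nearly the same sequence. They lie in inverted orientation on chromosome 13, 19.6 kb apart, Hist1h4m at chr13:21811746-21812147 on the plus strand and Hist1h4n at chr13:21831767-21832196 on the minus strand. In the GRCm38.p6 reference their coding sequences, stop codon included, had 0 differences, the 2000 bases before the start codon had 1 difference and the 100 bases after the stop codon had 0. The other H4 copies differed from Hist1h4m at 10 to 42 coding bases. The one difference within both genes is 3 bases before the start codon, and the stretch around it is shown because reads that cover it are the only reads within the annotated genes that can be assigned to one copy. The differing base is in capitals, and G11A gives the base of Hist1h4m, the position counted from 1 at the 5′ end of the stretch, and the base of Hist1h4n.
Hist1h4m (chr13:21811771-21811791, plus strand): ttttgtcttcGtcatgtctgg
Hist1h4n (chr13:21832151-21832171, minus strand): ttttgtcttcAtcatgtctgg

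The sum of both copies showed no such difference. It was 33.1, 32.7 and 50.7 CPM in WT and 36.2, 62.9 and 31.7 CPM in KO, so the ranges overlapped and the means of 38.9 ± 10.3 and 43.6 ± 16.9 CPM (SD, n = 3 each) differed by less than the spread. What differed was the division between the copies. Hist1h4m took 1.10%, 3.03% and 2.38% of the pair in WT against 54.0%, 54.7% and 56.1% in KO. The remaining H4 copies summed to 1400.5 ± 237 CPM in WT and 1331 ± 282 CPM in KO (SD, n = 3 each). The call for Hist1h4m is therefore uncertain as a change in histone H4 mRNA, and how the counting treated reads that map to both copies is not given in the sources used here.

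**Figure D3:**
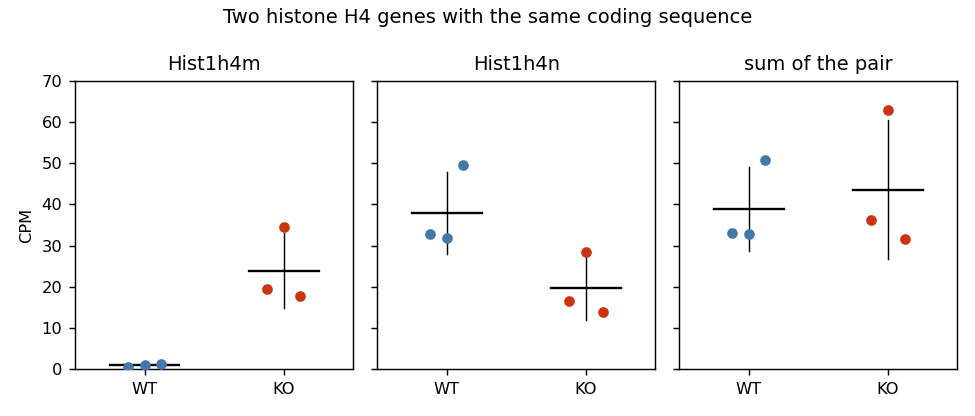
Level in CPM of the histone H4 copies Hist1h4m and Hist1h4n and of their sum, with points for the 3 WT and 3 KO libraries, a horizontal line for the mean and a vertical line for the SD. The sum overlaps between genotypes, from 32.7 to 50.7 CPM in WT and from 31.7 to 62.9 CPM in KO, while the share of Hist1h4m in it does not.

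The libraries of the 2 genotypes also did not overlap for genes that were not called. Across the autosomal genes tested, called genes included, 612 or 3.89% were higher in all 3 KO libraries than in any WT library. In the same way, 668 or 4.25% were lower in all 3 KO libraries. With 3 libraries per genotype, some genes separate in this way without a difference in level, so non-overlap alone is no call. Of the 26 autosomal genes with a log2 fold change of at least 1 in either direction and a mean of at least 1 CPM, 11 had libraries that did not overlap and 15 had libraries that did.

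Some members of this non-overlapping set with the largest values lay in the same region of a chromosome. Ccl28, a chemokine gene, measured 1.40, 1.22 and 1.20 CPM in WT and 3.88, 3.29 and 5.78 CPM in KO (log2 fold change 1.76 ± 0.24, SE; adjusted p = 0.054 by edgeR), just outside the threshold. In the same region of chromosome 13, Tmem267, which encodes a transmembrane protein, measured 5.31, 2.99 and 1.75 CPM in WT and 12.8, 9.14 and 11.7 CPM in KO (1.74 ± 0.34; adjusted p = 0.486). Both were higher in every KO library, and neither passed in edgeR. Ccl28 (chr13:119623819-119654359) and Tmem267 (chr13:119488039-119611059) lie in the same region as Nnt (chr13:119335528-119408952). Nnt is described below among loci at which substrains of C57BL/6 mice are known to differ.

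On chromosome 19, Ide, which encodes the insulin-degrading enzyme, measured 81.6, 84.5 and 94.0 CPM in WT and 135, 215 and 164 CPM in KO (log2 fold change 0.98 ± 0.16, SE; adjusted p = 0.148 by edgeR). Btaf1, an ATPase that removes the TATA-binding protein from DNA, lies in the same region and measured 42.6, 38.1 and 41.6 CPM in WT and 58.4, 86.4 and 79.6 CPM in KO (0.88 ± 0.14; adjusted p = 0.15). The spread was wider in KO than in WT for both genes, and the groups did not overlap. Ide is also among the substrain loci described below.

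Among genes with lower values in KO, Gabra2, the α2 subunit of the GABA-A receptor, measured 33.8, 22.2 and 22.4 CPM in WT and 11.1, 12.7 and 12.6 CPM in KO (log2 fold change −1.11 ± 0.17, SE; adjusted p = 0.113 by edgeR). Dynlt1b, a dynein light chain gene with near-identical neighbouring copies, so that its count is uncertain, measured 22.5, 18.2 and 16.9 CPM in WT and 6.37, 10.2 and 8.47 CPM in KO (−1.20 ± 0.18; adjusted p = 0.111). Both were below the WT range in all 3 KO libraries. Fmn1, an actin-nucleating formin, stood at −1.10 ± 0.23 (adjusted p = 0.672), and Spp1, which encodes the secreted protein osteopontin, at −1.26 ± 0.35 (adjusted p = 0.999). Spp1 measured 9.86, 3.21 and 5.85 CPM in WT and 2.86, 2.19 and 2.81 CPM in KO, with most of the spread within WT. Without WT replicate 1 its log2 fold change was −0.79.

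The remaining genes named from this set, the 10 largest values in each direction among genes with non-overlapping libraries, an unadjusted p under 0.05 and a mean of at least 1 CPM, had an adjusted p of 0.999 in edgeR's test. Larger values in genes whose libraries overlapped are not among them. Higher in KO were the chemokine gene Ccl25 (log2 fold change 0.84 ± 0.20, SE), the cell polarity gene Crb1 (0.80 ± 0.21) and the meiosis gene Meioc (0.77 ± 0.28). Lower in KO were Cd59a, an inhibitor of complement lysis (−1.05 ± 0.33), and the laminin gene Lamc3 (−0.94 ± 0.25). The sperm protein gene Spaca6 (−0.91 ± 0.28) and the zinc finger gene Zfp831 (−0.90 ± 0.31) were lower too. Without WT replicate 1 the value of Cd59a was −0.61.

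DESeq2's Wald test called more of these genes than edgeR did. Of the genes described above as not passing in edgeR, it called Ccl28, Tmem267, Ide, Btaf1 and Ccl25 as higher and Gabra2, Dynlt1b, Fmn1 and Spp1 as lower in KO, with adjusted p from 1.03e-09 for Ccl28 to 0.0391 for Spp1. It also called Gm16867, Adss and Pkd1l1, which are named here after their values were seen.

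Wdfy1, Gabra2, Nnt and Ide are loci at which substrains of C57BL/6 mice are known to differ. Nnt, the mitochondrial nicotinamide nucleotide transhydrogenase, measured 17.4, 15.3 and 20.8 CPM in WT and 12.6, 14.7 and 12.1 CPM in KO (log2 fold change −0.44 ± 0.14, SE; adjusted p = 0.999 by edgeR), under 2 overlapping gene identifiers that gave nearly the same counts. The libraries of the 2 genotypes did not overlap for any of these 4 genes, 3 lower and 1 higher in KO, against 4.25% lower and 3.89% higher among all autosomal genes, and Wdfy1 alone passed in edgeR, while DESeq2 called Wdfy1, Gabra2 and Ide. These 4 genes were chosen with earlier results of these data known, so the comparison with all autosomal genes is no independent evidence. The part of these 4 genes in the difference between the lines was not tested.

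None of the relatives and partners of FMRP passed the test. Fxr1 and Fxr2 are the autosomal paralogs of Fmr1, and Cyfip1 and Cyfip2 encode proteins that bind FMRP and belong to the WAVE complex that regulates actin. The log2 fold changes were 0.10 for Fxr1 (95% interval −0.13 to 0.33), −0.03 for Fxr2 (−0.30 to 0.24), −0.05 for Cyfip1 (−0.28 to 0.17) and 0.13 for Cyfip2 (−0.16 to 0.43), each with an adjusted p of 0.999 in edgeR's test. These intervals all lie within −1 and 1 on the log2 scale. Per length of exon sequence, in RPKM (reads scaled by library size and by exon length), WT levels were 7.16 for Fmr1, 8.77 for Fxr1, 20.8 for Fxr2, 7.30 for Cyfip1 and 72.0 for Cyfip2, and the Fmr1 level in KO was 1.92. Over a list of 20 genes for FMRP relatives and partners, 0 passed in edgeR, 0 in DESeq2 and 0 had an unadjusted p under 0.05, and the median log2 fold change was 0.08.

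mRNAs known as targets of FMRP at synapses had values spread around 0. Of 22 tested, among them Map1b, 0 passed in edgeR and in DESeq2, 0 had an unadjusted p under 0.05 and the median was 0.01, beside 0.00027 over all autosomal genes. Map1b, a microtubule-associated protein mRNA and classic FMRP target, measured 3690, 4801 and 4362 CPM in WT and 5379, 4214 and 5227 CPM in KO, which overlap (0.21 ± 0.16, SE). Larger lists taken from the study gave like values. Among 732 tested brain mRNAs bound by FMRP the median was 0.03, and among 258 from a second source of FMRP targets it was 0.04. Among 174 mRNAs of ribosomes resistant to run-off it was −0.02. Leaving out single libraries gave −0.04 to 0.07, −0.02 to 0.06 and −0.05 to 0.01 in turn, and −0.05 to 0.05 for the synaptic targets. None of the 3 larger lists had a member that passed in edgeR or DESeq2. Their members with an unadjusted p under 0.05 were 5 higher and 14 lower, 3 higher and 9 lower, and 2 higher and 4 lower in KO. Libraries that did not overlap were found at 2.73% higher and 3.01% lower, 3.88% and 3.88%, and 2.87% and 1.72%, against 3.89% and 4.25% of all autosomal genes.

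**Figure D4:**
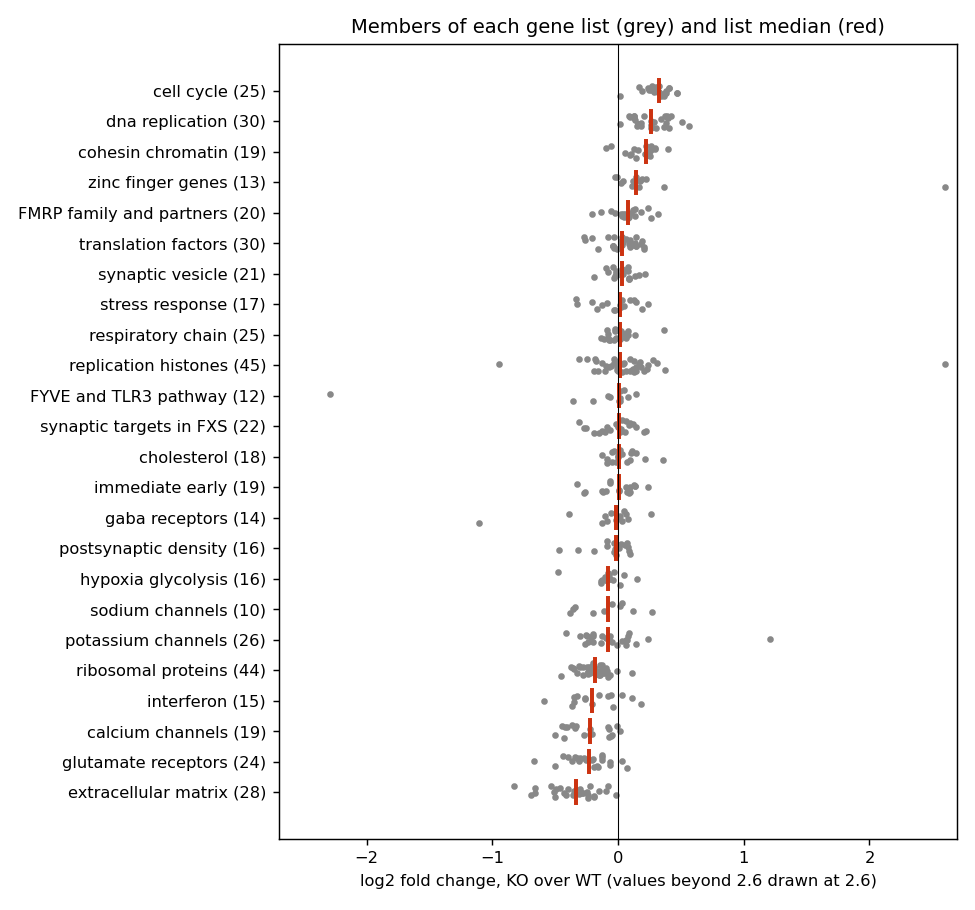
Log2 fold change of FMR1 KO over WT for the members of each list of genes of shared function (grey points) and the list median (red), with values beyond 2.6 drawn at 2.6. Medians run from −0.33 for extracellular matrix genes to 0.32 for cell cycle genes, and most lists lie near 0.

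Ion channels and receptors were described by family. The families were drawn up with earlier results of these data known, so their shares are no independent evidence. Of 26 potassium channel genes Kcnh6 passed, and the median of the family was −0.08, or from −0.15 (without WT replicate 2) to −0.03 (without KO replicate 2) with single libraries left out. Other members had smaller values in both directions, such as the M-current gene Kcnq3 with 142, 139 and 134 CPM in WT and 159, 179 and 152 CPM in KO (0.24 ± 0.10, SE) and the sodium-activated channel gene Kcnt1 with 10.1, 10.6 and 8.37 CPM in WT and 7.93, 5.71 and 8.13 CPM in KO (−0.42 ± 0.17). Of 10 sodium channel genes 0 passed in edgeR or DESeq2 and 3 had an unadjusted p under 0.05, 1 higher and 2 lower, with a median of −0.08, or −0.15 without KO replicate 2. The share with such a p was 2.47% among all autosomal genes. Libraries did not overlap for 10.0% of the list higher and 20.0% lower in KO, against 3.89% and 4.25%. Scn2a was higher in all KO libraries (0.27 ± 0.11), and Scn1a (−0.35 ± 0.15) and Scn8a (−0.20 ± 0.09) lower. Each of these values had an adjusted p of 0.999 in edgeR's test.

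Of the genes for voltage-gated and intracellular calcium channels, 18 of 19 had a negative log2 fold change, with a median of −0.22, and 0 passed in edgeR or DESeq2. An unadjusted p under 0.05 was reached by 4 genes, all lower, and 21.1% of the list was lower in every KO library than in any WT library, against 4.25% of all autosomal genes. Cacna1e, the R-type channel gene, measured 69.2, 53.5 and 44.4 CPM in WT and 39.2, 42.9 and 43.7 CPM in KO (−0.41 ± 0.15, SE), with a WT library close to the KO range. Cacna1b, the N-type gene, measured 70.6, 56.5 and 40.6 CPM in WT and 43.1, 36.1 and 39.2 CPM in KO (−0.50 ± 0.18), and the P/Q-type gene Cacna1a 64.3, 58.4 and 53.7 CPM against 51.5, 45.0 and 49.6 CPM (−0.27 ± 0.10). WT replicate 1 had the highest summed level of the list, 1220 CPM against 986 to 1180 CPM in the other 5 libraries, and leaving out single libraries gave medians from −0.33 to −0.14.

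Glutamate receptor genes had a negative log2 fold change in 22 of 24 cases, with a median of −0.23. In this list 0 passed in edgeR or DESeq2, while 3 had an unadjusted p under 0.05, all lower, as had 2.47% of all autosomal genes in either direction. Libraries did not overlap, lower in KO, for 12.5% of the list, against 4.25% of all autosomal genes. Gria1, an AMPA receptor subunit, measured 80.7, 58.9 and 56.0 CPM in WT and 47.5, 53.8 and 54.4 CPM in KO (−0.33 ± 0.15, SE; adjusted p = 0.999 by edgeR). Grin2a, an NMDA receptor subunit that rises after birth, measured 39.1, 28.1 and 24.6 CPM in WT and 21.03, 25.9 and 22.8 CPM in KO (−0.40 ± 0.17; adjusted p = 0.999). WT replicate 1 was again the highest library for both, and leaving out single libraries gave list medians from −0.32 to −0.08. GABA receptor genes, with Gabra2 among them, had a median of −0.02 over 14 members, of which 0 passed in edgeR, 1 passed in DESeq2 and 1 had an unadjusted p under 0.05. Synaptic vesicle genes (21 tested) had a median of 0.03 and postsynaptic density genes (16 tested) of −0.02. In these 2 lists 0 passed the threshold in either tool, and 0 and 1 had an unadjusted p under 0.05. Leaving out single libraries gave −0.03 to 0.08 for synaptic vesicle, −0.06 to 0.01 for postsynaptic density and −0.10 to 0.05 for GABA receptor genes.

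All 25 cell cycle genes tested had a positive log2 fold change, with a median of 0.32, as did all 30 DNA replication genes, with a median of 0.26. The DNA replication median was 0.16 without WT replicate 1 and 0.41 without WT replicate 3. None of these genes passed in edgeR or DESeq2, and 2 and 3 had an unadjusted p under 0.05, as had 2.47% of all autosomal genes. Libraries did not overlap, higher in KO, for 0% of the cell cycle and 16.7% of the DNA replication list, against 3.89% of all autosomal genes. The cell cycle, DNA replication, calcium channel and extracellular matrix themes were known from these libraries when the lists were drawn up. The shared direction is therefore no independent evidence. Ncapg, a condensin subunit for chromosome compaction, measured 31.1, 26.7 and 36.6 CPM in WT and 34.9, 46.5 and 38.5 CPM in KO (0.34 ± 0.15, SE). Orc3, a subunit of the origin recognition complex, measured 74.2, 65.3 and 68.5 CPM in WT and 74.6, 90.5 and 85.5 CPM in KO (0.27 ± 0.11). For Ncapg the groups overlapped, and for Orc3 the lowest KO library was just above the highest WT library.

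The cell cycle genes varied between libraries together with markers of cerebellar granule cells, whose precursors divide in the first postnatal weeks. Summed over the list, cell cycle genes measured 405, 399 and 679 CPM in WT and 507, 785 and 588 CPM in KO. The 8 granule cell markers, with Atoh1, the factor that specifies the precursors, at 0 reads in WT replicate 1, summed to 208, 318 and 649 CPM in WT and 408, 611 and 500.5 CPM in KO. In both sums WT replicates 1 and 2 were the 2 lowest libraries and WT replicate 3 and KO replicate 2 the 2 highest. The median log2 fold change of the granule markers was 0.25, and it was −0.02 without WT replicate 1 and 1.13 without WT replicate 3. Without WT replicate 3 the cell cycle median was 0.58, and without KO replicate 2 the cell cycle median was 0.16. The part of granule cells in the values of cell cycle genes was not tested.

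Genes for cohesin and chromatin proteins had a positive log2 fold change in 17 of 19 cases, with a median of 0.22, with 0 past the threshold in edgeR or DESeq2 and 4 at an unadjusted p under 0.05. Libraries did not overlap for 36.8% of the list, all higher in KO, against 3.89% of all autosomal genes. This list too was drawn up with earlier results of these data known, so the share is no independent evidence. Rad21, the kleisin subunit of cohesin, measured 133, 143 and 176 CPM in WT and 179, 184 and 192 CPM in KO (0.30 ± 0.12, SE; adjusted p = 0.999 by edgeR). In a list of 13 zinc finger genes, Gm15446 passed and the median was 0.15, with Zfp932 at 9.77, 7.91 and 7.07 CPM in WT and 10.3, 11.6 and 10.0 CPM in KO (0.36 ± 0.15; adjusted p = 0.999). Among 45 replication-dependent histone genes Hist1h4m passed and the median was 0.01, or from −0.25 to 0.27 with single libraries left out.

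Extracellular matrix genes had a negative log2 fold change in all 28 cases, with a median of −0.33, and 0 passed in edgeR or DESeq2, while 5 had an unadjusted p under 0.05. In 28.6% of the list every KO library was below every WT library, against 4.25% of all autosomal genes. Col12a1, a fibril-associated collagen, measured 13.3, 8.51 and 9.22 CPM in WT and 6.93, 6.72 and 7.73 CPM in KO (−0.54 ± 0.18, SE; adjusted p = 0.999 by edgeR), and Fbn1, the microfibril protein fibrillin, measured 12.6, 9.08 and 8.47 CPM in WT and 7.84, 6.31 and 8.19 CPM in KO (−0.43 ± 0.18; adjusted p = 0.999). The list summed to 458, 258 and 318 CPM in WT and 236, 254 and 276 CPM in KO, and fibroblast markers, some of which it shares, to 567, 255 and 350 CPM and 301, 213 and 357 CPM. WT replicate 1 was the highest in both sums, and without it the median of the matrix list was −0.17, while without WT replicate 2 it was −0.45. The part of meningeal fibroblasts in these values was not tested.

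Ribosomal protein genes were also highest in that library. Of 44 tested, 43 had a negative log2 fold change and the median was −0.18, with 0 past the threshold in edgeR or DESeq2 and 0 at an unadjusted p under 0.05. Their summed level was 26519 CPM in WT replicate 1 against 12820 to 17885 CPM in the other 5 libraries, and without that library the median turned to 0.17. Translation factors (30 tested; 1 with an unadjusted p under 0.05) had a median of 0.03 and respiratory chain genes (25 tested; 0 with an unadjusted p under 0.05) of 0.01, with 0 past the threshold in either tool.

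Of the lists for other responses, none but the one that holds Wdfy1 had a member that passed in edgeR or DESeq2. Cholesterol synthesis genes (18 tested) had a median of 0.01, with 2 at an unadjusted p under 0.05. One was Insig1, a sterol sensor, at 50.4, 44.2 and 49.5 CPM in WT and 61.6, 56.1 and 66.7 CPM in KO (0.35 ± 0.10, SE; adjusted p = 0.999 by edgeR), higher in every KO library. Genes of the stress response (17 tested, 0 with an unadjusted p under 0.05) had a median of 0.02, and their summed level of 864, 1023 and 1020 CPM in WT and 1056, 1122 and 1040 CPM in KO did not overlap. Medians were 0.01 for immediate early genes (19 tested, 0 with an unadjusted p under 0.05), 0.01 for Toll-like receptor and FYVE trafficking genes (12 tested), −0.08 for hypoxia and glycolysis genes (16 tested, 1 lower with an unadjusted p under 0.05) and −0.21 for interferon response genes (15 tested, 1 lower with an unadjusted p under 0.05). The interferon median was −0.08 without KO replicate 2 and −0.33 without WT replicate 2. With single libraries left out, the other lists of this paragraph had medians from −0.13 to 0.09.

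Cell type markers were summed per library to set these values beside the makeup of the tissue. General neuronal markers, Tubb3 and Stmn2 among them, summed to between 7381 and 8678 CPM in the 6 libraries, whereas markers of retina summed to at most 4.86 CPM and of muscle to at most 19.9 CPM. In 26 marker lists no member passed the threshold in edgeR or DESeq2. Of the 204 genes tested 18, or 8.82%, had an unadjusted p under 0.05, 2 higher and 16 lower, against 2.47% of all autosomal genes. The marker lists were drawn up with earlier results of these data known, so their shares are no independent evidence. The sums of WT and KO overlapped in 25 of the lists. The exception was the list for oligodendrocyte precursors, which summed to 521, 487 and 522 CPM in WT and 465, 427 and 382 CPM in KO, a ratio of 0.833.

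Within the 8 precursor markers the median log2 fold change was −0.27, or from −0.37 to −0.19 with single libraries left out, and 4 or 50.0% of the list were lower in every KO library than in any WT library, against 4.25% of all autosomal genes. Olig1, a lineage transcription factor, measured 302, 257 and 271 CPM in WT and 251, 221 and 208 CPM in KO (−0.29 ± 0.11, SE; adjusted p = 0.999 by edgeR). Olig2, its partner, measured 80.6, 78.4 and 78.7 CPM in WT and 70.5, 72.0 and 45.8 CPM in KO (−0.34 ± 0.16; adjusted p = 0.999). Pdgfra, the growth factor receptor that defines the same cells and which is named here after its values were seen, went the other way and overlapped, with 19.3, 16.8 and 31.1 CPM in WT and 23.4, 28.2 and 26.0 CPM in KO (0.21 ± 0.21). Mature oligodendrocyte markers summed to 304, 359 and 678 CPM in WT and 407, 506 and 325 CPM in KO, with WT replicate 3 the highest.

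The medians were 0.09 for general neuronal, 0.14 for excitatory, 0.02 for inhibitory and 0.16 for immature neuronal markers. Leaving out single libraries gave medians from 0.02 to 0.15 for general neuronal, from 0.07 to 0.21 for excitatory, from −0.07 to 0.05 for inhibitory and from 0.03 to 0.30 for immature neuronal markers. Map2, a dendritic microtubule protein, measured 1951, 1693 and 1951 CPM in WT and 2301, 2288 and 2189 CPM in KO (0.28 ± 0.12, SE; adjusted p = 0.999 by edgeR), and Sox11, a factor of newborn neurons, measured 407, 425 and 449 CPM in WT and 465, 484 and 587 CPM in KO (0.26 ± 0.12; adjusted p = 0.999). Both were higher in every KO library without passing the test. Positive values were found for 6 of 9 general, 7 of 8 excitatory, 6 of 10 inhibitory and 6 of 7 immature neuronal markers. Eomes of the immature list stood at −0.47 ± 0.42. Libraries did not overlap, higher in KO, for 22.2% of the general and 14.3% of the immature list, against 3.89% of all autosomal genes.

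Glial and vascular markers had medians below 0, at −0.29 for astrocytes, −0.39 for microglia, −0.30 for endothelial cells, −0.18 for mural cells, −0.28 for choroid plexus and −0.48 for fibroblasts, while that for neural progenitors was −0.02. Leaving out single libraries gave medians from −0.42 (without WT replicate 2) to −0.16 (without WT replicate 3) for astrocytes, from −0.56 (without KO replicate 2) to −0.12 (without WT replicate 1) for microglia and from −0.45 (without WT replicate 3) to −0.05 (without WT replicate 1) for endothelial cells. It gave −0.29 (without KO replicate 3) to −0.08 (without KO replicate 2) for mural cells, −0.43 (without WT replicate 3) to −0.02 (without WT replicate 1) for choroid plexus, −0.78 (without KO replicate 3) to −0.19 (without WT replicate 1) for fibroblasts and −0.06 to 0.05 for neural progenitors. Among microglial genes Tyrobp, a signalling adaptor, measured 11.8, 6.16 and 6.97 CPM in WT and 5.84, 5.84 and 5.10 CPM in KO (−0.57 ± 0.23, SE; adjusted p = 0.999 by edgeR), and C1qa, a complement subunit, 3.88, 2.91 and 3.51 CPM in WT and 2.46, 2.58 and 2.65 CPM in KO (−0.42 ± 0.18; adjusted p = 0.999). The summed microglial level, led by more abundant genes, was 211 to 213 CPM in WT and 185 to 226 CPM in KO and so overlapped.

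Markers of hindbrain and granule cells spread widely among the WT libraries. Hindbrain and spinal markers summed to 3.32, 9.99 and 38.5 CPM in WT and 20.0, 12.3 and 17.1 CPM in KO, so WT replicates 1 and 3 were the 2 extremes. Barhl1, a granule cell lineage factor, measured 4.55, 22.5 and 62.0 CPM in WT and 42.9, 60.9 and 50.6 CPM in KO. Olfactory bulb markers summed to 82.0, 73.9 and 99.8 CPM in WT and 38.8, 35.8 and 103 CPM in KO, with KO replicate 3 at the level of WT. The remaining region lists had medians of −0.03 for Purkinje cells, −0.17 for striatum, −0.06 for hippocampus and −0.06 for thalamus and hypothalamus. Leaving out single libraries gave −0.32 to 0.20 for Purkinje cells, −0.27 to −0.11 for striatum, −0.27 to 6.73e-05 for hippocampus and −0.22 to 0.02 for thalamus and hypothalamus. The part of these differences in regional makeup in the gene lists above was not tested.

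**Figure D5:**
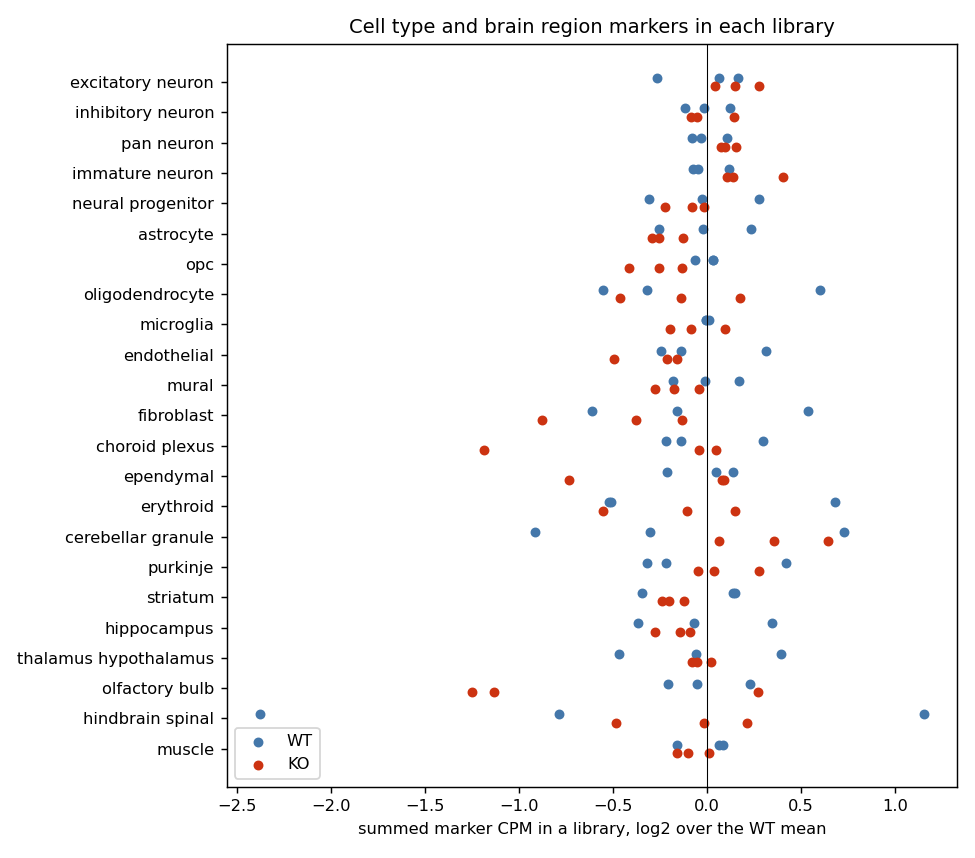
Log2 of the summed CPM of each marker list relative to the WT mean, with blue points for the 3 WT and red points for the 3 KO libraries, for lists with a WT mean sum of at least 10 CPM. The oligodendrocyte precursor list is the one in which the genotypes do not overlap, and granule cell and hindbrain lists spread widest within WT.

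RNA libraries from a second preparation in the same series, made with the buffer of lower magnesium, offered a further set of 3 WT and 3 KO. Whether they came from the same brains is not given. Their totals ran from 41586791 to 141505786. In 3 of them the 10 most abundant genes took 82.4% to 85.0% of the counts, against 3.66% to 4.10% in the others, so precision was lower. These 3 were WT replicate 2, KO replicate 2 and KO replicate 3. They fall unevenly on the genotypes, so each difference from this preparation mixes genotype with this trait of the libraries. No autosomal gene nor Fmr1 passed in edgeR's test there, with 315 at an unadjusted p under 0.05. The log2 fold changes were −1.58 ± 0.58 (SE) for Fmr1, −1.46 ± 0.40 for Wdfy1, 0.78 ± 0.46 for Kcnh6, 3.79 ± 0.76 for Gm15446 and 3.06 ± 0.81 for Hist1h4m, each in the direction of the M protocol libraries and each with an adjusted p of 0.859. Hist1h4m took 15.5%, 14.3% and 5.39% of the H4 pair in WT, from 174, 14 and 687 reads of the pair, and 59.1%, 51.9% and 25.0% in KO, from 582, 27 and 8 reads. The share in KO replicate 3 rests on 2 reads of Hist1h4m, so whether the genotypes overlap cannot be read at this depth. The 20 largest values in the M protocol libraries were taken among autosomal genes with non-overlapping libraries, an unadjusted p under 0.05 and a mean of at least 1 CPM. Of these genes 19 had a value in the second preparation and 17 of them had the same direction. The libraries again did not overlap, in the same direction, for 8. Some of the 17 were within their SE or little beyond it, such as Cd59a (−0.06 ± 0.76), Fmn1 (−0.28 ± 0.49), Hist1h4n (−0.28 ± 0.58) and Spp1 (−0.57 ± 0.48). The share of all autosomal genes with the same direction is not given here.

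Over the gene lists the second preparation often differed from the first. The median log2 fold change had the opposite sign in 23 of 54 lists. Among the lists with medians away from 0 in the M protocol libraries, the second preparation gave 0.20 for cell cycle, 0.08 for DNA replication, 0.57 for cohesin and chromatin, −0.20 for calcium channel, −0.0076 for glutamate receptor and −0.55 for extracellular matrix genes. It gave 0.14 for ribosomal protein, 0.32 for interferon response and 0.09 for potassium channel genes, which turned the direction. Among cell type markers it gave −0.64 for oligodendrocyte precursors, −0.04 for astrocytes, −0.20 for microglia, 0.36 for endothelial cells, −0.31 for mural cells, −0.18 for choroid plexus, −0.19 for fibroblasts and −0.25 for neural progenitors. It gave 0.43 for general neuronal, −0.22 for excitatory, 0.06 for inhibitory and −0.34 for immature neuronal markers, and −0.48 for granule cells. For region markers it gave 0.54 for hippocampus and 0.11 for Purkinje cells, both turned, −0.20 for striatum and −0.25 for thalamus and hypothalamus. For FMRP targets it gave −0.13 for the brain mRNAs bound by FMRP, 0.02 for the second source and −0.11 for the synaptic targets. For mRNAs resistant to run-off it gave −0.13. The difference between the preparations was not tested for the lists.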

How the data were processed

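RNA-seq counts per gene were used as deposited, as raw read counts that had not been normalized by the authors. Per the labels and the study's methods, reads were trimmed (cutadapt 2.10), depleted of rRNA and other noncoding RNA reads by alignment (Bowtie2 2.3.5), aligned to GRCm38 (STAR 2.7.8a), stripped of PCR duplicates (Picard; SAMtools 1.19.2) and counted (featureCounts 2.2.0). Removing duplicates lowers the counts of short, abundant genes in particular. Gene type, chromosome, position and exon length came from GENCODE M21, and 53 genes that were not protein-coding or not in it were left out. The sequences came from the GRCm38.p6 reference.

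Protein-coding genes were filtered with filterByExpr, scaled by TMM and tested in R 4.3.3 with edgeR 4.0.16 (quasi-likelihood F-test, no covariates, n = 3 per genotype, 16334 genes). P-values were adjusted by Benjamini-Hochberg over all of them, with a threshold of 0.05. CPM values are TMM-scaled. The standard error is the log2 fold change over the square root of F, and intervals are 95%. The replicates are separate samples by label, and p-values measure the spread between these samples, which may be technical. Gene lists and medians were described without a test. The test was checked on simulated counts with 3 libraries a group, in which 70% of 100 genes changed by 1 on the log2 scale and 98% of 100 genes changed by 2 were recovered. Genes and lists were chosen with earlier results of these data known.

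Genes named were Fmr1, each autosomal gene past the threshold, the 10 largest rises and 10 largest falls among autosomal genes with a mean of at least 1 CPM, an unadjusted p under 0.05 and non-overlapping libraries, Fxr1, Fxr2, Cyfip1, Cyfip2, Wdfy1, Gabra2, Nnt and Ide, and in each list up to 4 members with the smallest p and the most abundant member. Alternatives were other scaling, filters, gene sets and tools (DESeq2 1.42.0), a replicate block, leaving out libraries, and the libraries of the second preparation. X-linked genes other than Fmr1 were not used here.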

Additional observations from a re-analysis of the deposited data

How the results depend on the processing

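The count of autosomal genes and Fmr1 past the threshold was 5 (3 higher, 2 lower). It was also 5 with DESeq2 size factors, with library size alone, without a filter on low counts, with autosomal genes and Fmr1 alone in the fit, with all gene types and with the replicate block. DESeq2's Wald test called 17, all 5 among them, and the second preparation gave 0. Leaving out libraries gave counts from 3 (without replicate 2 of both genotypes) to 9 (without WT replicate 3), with 8 without KO replicate 3. Same-numbered libraries correlated at −0.12, −0.03 and 0.11 in their deviations from the group means, so the numbers do not pair the samples. Fmr1, Wdfy1 and Gm15446 passed in 16 of 17 alternatives, Hist1h4m in 14 and Kcnh6 in 13. Kcnh6 lost its call without replicate 1, 2 or 3 of both genotypes, with log2 fold changes from 1.18 to 1.23, and Hist1h4m without replicate 2 of both (4.55) or WT replicate 2 alone (4.90). The cause was not tested. In the second preparation Spaca6 (1.12) and Zfp831 (0.35) changed sign among the genes named singly, as did 66 of 214 genes named from lists. With libraries left out, Fxr1 ran from −0.0099 to 0.16, Cyfip1 from −0.16 to 0.033, Fxr2 from −0.16 to 0.059 and Cyfip2 from 0.014 to 0.21 (0.43 in the second preparation). The medians of 31 of 54 lists moved by more than the spread between replicates in the second preparation, and that of 1 with library size alone. Without replicate 1, 2 or 3 of both genotypes 9, 8 and 7 medians moved, and at most 4 without a single library. At this depth small differences remain within the replicate spread.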

Other observations

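Some of the largest differences in group means came from 1 library, and are given as values that were picked out after they were seen. In KO replicate 2, Il31ra, a cytokine receptor gene, measured 177 CPM against 0.830 and 0.978 CPM in the other KO libraries and 0.859 to 4.67 CPM in WT. Lars2, the mitochondrial leucyl-tRNA synthetase gene, measured 452 CPM there against 12.4 to 35.1 CPM in the other 5 libraries. Zc3h7a, a zinc finger gene, measured 16154 CPM against 1243 to 2631 CPM, and Cdk8, a Mediator kinase gene, 354 CPM against 48.6 to 87.6 CPM. Cd44 (22.8 CPM) and Myom1 (13.1 CPM) were also highest in that library, the other 5 lying between 3.07 and 4.32 CPM and between 1.21 and 2.41 CPM.

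In WT replicate 3, homeobox genes of the hindbrain stood apart. Hoxa5 measured 7.70 CPM there, was at 0 reads in the other WT libraries and measured 0.469, 0.051 and 0.271 CPM in KO. Hoxa3 measured 13.2 CPM against 0.035 and 0.087 CPM in the other WT libraries and 0.650 to 2.26 CPM in KO, and Pomc, a pituitary and hypothalamic hormone gene, measured 6.66 CPM against 1.28 to 1.60 CPM in the other 5 libraries. None of these genes passed the test between genotypes in edgeR or DESeq2.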
